A study of Homo sapiens with 66 samples.

Results

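The NDRG1 locus was examined as a window on chromosome 8 (134200000 to 134450000, build GRCh37/hg19), which holds the NDRG1 gene, its flanks and a distal HIF-binding site upstream of it. Every peak whose centre lay in the window was taken from 50 lists of binding peaks, giving 210 of the 131425 peaks in all lists, and peaks that shared at least 1 bp were merged into 21 of the 50169 merged sites of the genome. The window was chosen by the peak calls themselves, because its distal site was known to be called in every list, so the number of calls at that site is a description and carries no test. Nearest to the edges of the window lay sites called in 31 libraries (29.5 kb inside the lower bound) and 5 libraries (8.84 kb inside the upper bound), and outside it sites called in 10 libraries (75.5 kb away) and 7 libraries (11.1 kb away).

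NDRG1 encodes a cytoplasmic protein of the N-myc downstream regulated family, and its transcript is widely known to be induced by hypoxia. The hypoxia-inducible factors (HIF) act as heterodimers of an oxygen-regulated α subunit, HIF-1α or HIF-2α, and a constitutive partner, HIF-1β (ARNT), which together contact the hypoxia response element (HRE) in promoters and enhancers. In normal oxygen the α subunits are hydroxylated and then marked for degradation by the von Hippel-Lindau protein (VHL), so HIF accumulates in hypoxia or where VHL is lost.

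The lists came from chromatin immunoprecipitation with sequencing (ChIP-seq) of HIF-1α (16 libraries), HIF-2α (16) and HIF-1β (18), with 2 libraries in each of 25 groups. HKC-8, an immortalised line of kidney proximal tubule cells, was exposed to hypoxia of 3% oxygen, for 6 h, or of 0.5% oxygen, with durations of 6, 16 and 48 h (24 libraries). In a separate knockout experiment (14 libraries), wild-type (WT) HKC-8 cells and HKC-8 cells in which CRISPR-Cas9 had disrupted HIF-1α (HIF-1α KO) or HIF-2α (HIF-2α KO) were all kept in 0.5% oxygen for 16 h, each knockout being a single clone. RCC4, a VHL-deficient renal carcinoma line, was used in normoxia (6 libraries), and HepG2, a liver cancer line, in 0.5% oxygen for 16 h (6 libraries). No list from an antibody to the deleted subunit was analysed here, so the knockout labels could not be checked against the peaks.

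A list gives each peak a position and a score from the peak caller that rises with the strength of the evidence, but no read depth. Scores grow with depth, therefore each peak was placed by its rank in its own list, with rank 1 for the highest score. Lists ranged from 237 to 8279 peaks, and those of the severity and duration experiment (at most 1793 peaks) were the shortest, so a site without a call in a short list may be bound below the limit of detection. The HepG2 lists of the α subunits stood apart, because the share of peaks within 1 kb of a protein-coding start was 6.73% and 28.7% in the HIF-1α replicates and 30.6% and 8.08% in the HIF-2α replicates. The shares were alike between HIF-1α replicate 1 and HIF-2α replicate 2, and between the other 2 libraries. Whether libraries had been exchanged between antibodies was not tested, so each HepG2 value for an α subunit depends on labels that the promoter shares put in doubt, and comparisons of HIF-1α with HIF-2α are also given without HepG2.

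Of the 21 sites, 8 were called in 1 library each, 7 in 2 to 6 libraries and 6 in at least 13 libraries, and these 6 recurring sites held 174 of the 210 peaks. They are named here by their distance upstream of the canonical NDRG1 start (134309495, reverse strand). The site at −80.0 kb (134227987 to 134231291) lay beyond the far end of NDRG1, in an intron of CCN4, which encodes a secreted matricellular protein, and was called in 31 libraries. The remaining 5 were upstream of NDRG1 and outside protein-coding genes, at +23.5 kb (134331901 to 134333668, 13 libraries), +59.5 kb (134366863 to 134371785, 25 libraries), +78.5 kb (134386072 to 134390107, 50 libraries), +84.9 kb (134393718 to 134396388, 27 libraries) and +111.6 kb (134418573 to 134421855, 17 libraries). The last of these overlapped ST13P6, a processed pseudogene. Longer lists held more peaks of the window, with a rank correlation of 0.772 over the 50 libraries, which share conditions and antibodies.

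**Figure D1:**
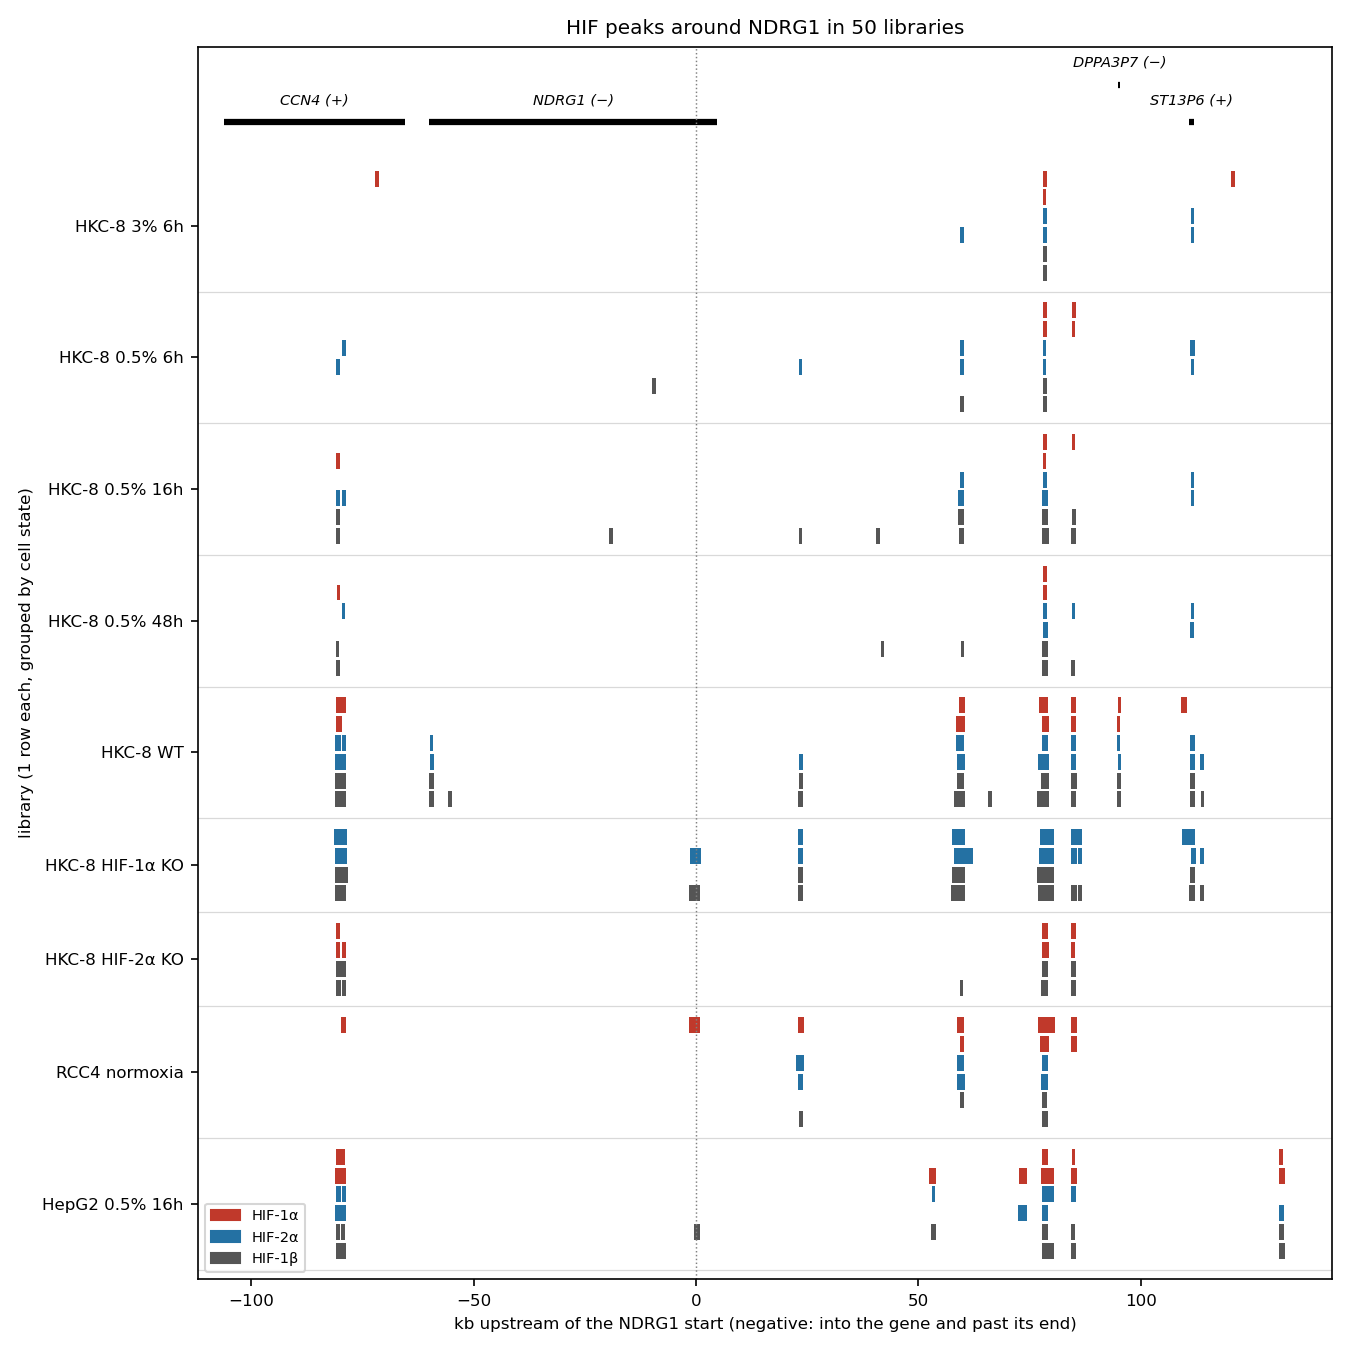
Each bar is a peak, drawn at its distance in kb upstream of the NDRG1 start (peaks under 0.8 kb are widened to be visible), in 50 rows for the 50 libraries, coloured by antibody and grouped by cell state, with annotated genes and their strands above. The column of bars at +78.5 kb runs through all 50 rows, and the next most frequent site, in CCN4, has bars in 31.

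Few of the 210 peaks of the window lay in the NDRG1 gene itself. Within the 64.8 kb of the gene, 5 sites with 11 peaks in total were called, and none of the 5 was a recurring site. How these numbers compare with those of other genes was not examined. At the promoter (134307845 to 134310585, centre in the 5′ UTR and 0.0613 kb from an annotated start), a peak was called in 4 of 50 libraries, namely replicate 2 of HIF-2α and of HIF-1β in HIF-1α KO cells, replicate 1 of HIF-1α in RCC4 and replicate 1 of HIF-1β in HepG2. These promoter peaks ranked 4347, 4880, 3863 and 3157 in lists of 6540, 5786, 5680 and 6171 peaks, all in the lower part of their lists, and their scores were 60.6 to 84.0. At the 3′ end of the gene, where a long non-coding RNA (ENSG00000289316) is also annotated, a peak was called in WT HKC-8 cells in the 2 HIF-2α and the 2 HIF-1β libraries, with ranks 2302 to 3941.

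The +78.5 kb site, the distal site of the locus, was intergenic and lay 73.7 kb from the most upstream annotated start of NDRG1 and 114 kb from that of ST3GAL1, the next protein-coding gene on its other side. It was called in 16 of 16 HIF-1α, 16 of 16 HIF-2α and 18 of 18 HIF-1β libraries, with exactly 1 peak in each. Across the genome, 2 of 50169 merged sites (0.00399%) were called in every library, the other lying 103 kb from the start of ARRDC3. In 43 of 50 libraries the distal peak had the highest score of the window. The exceptions were 5 HIF-2α libraries of the severity and duration experiment, where the +111.6 kb site scored higher, and replicate 2 of both antibodies in HIF-1α KO cells, where the CCN4 site did. Its rank was between 2 and 123, with a median of 19.5, and it stood among the best 10 peaks in 16 libraries, the best 50 in 38 and the best 100 in 47. In 4 HIF-1β lists its score was 3100, a value at which high scores piled up (342 peaks in all lists, with 51 above it), so its place is known there only as within the first 24 and 66 peaks in the WT replicates, the first 4 in HIF-2α KO replicate 1 and the first 17 in HepG2 replicate 1. The ranks given for these libraries are the mean ranks of tied peaks.

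The place of the distal peak differed between antibodies and cell states. Its median rank was 8.5 with HIF-1β (lowest 2, highest 123, n = 18), 20 with HIF-1α (4 to 59, n = 16) and 31 with HIF-2α (3 to 117, n = 16). In 3% oxygen for 6 h the HIF-1α libraries placed it at ranks 41 and 29, the HIF-2α libraries at 29 and 21, and the HIF-1β libraries at 9 and 8. In 0.5% oxygen the ranks were 21 and 21, 24 and 21, and 7 and 4 after 6 h, with antibodies in the same order. After 16 h they were 19 and 19, 8 and 19, and 11 and 4. In each of these 3 states, and after 48 h, both HIF-1β libraries placed the distal peak nearer the top than both HIF-1α libraries did. After 48 h the ranks were 11 and 12 for HIF-1α and 2 and 3 for HIF-1β, whereas the HIF-2α libraries gave 3 and 33, the latter in the list of 237 peaks.

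In WT cells of the knockout experiment HIF-1α placed the distal peak at 5 and 4, HIF-2α at 64 and 95, and HIF-1β at 15.5 and 37. These HIF-1α and HIF-2α ranks did not overlap, although the WT cells had the same oxygen level and duration as the 16 h cells of the other experiment. RCC4 cells gave 52 and 36 with HIF-1α, 20 and 57 with HIF-2α, and 8 and 13 with HIF-1β. In HepG2 the ranks were 45 and 59, 59 and 56, and 11 and 123, the last being the HIF-1β replicates. When the 25 groups were ordered by their mean log2 rank, 21 of the 24 pairs of neighbours overlapped in their ranks, so most of that order was within the spread of the replicates and, for the HIF-1β groups with tied scores, within the uncertainty of their place. The 3 breaks lay below HIF-1β in HIF-2α KO cells (3.5 and 3, next to 5 and 4 for HIF-1α in WT), between 19 and 21, and between 59 and 64. The groups furthest from the top by rank were HIF-2α in WT and both antibodies in HIF-1α KO cells. As a mean percentage of the list, these stood at 1.41 (WT HIF-2α), 1.54 (HIF-1α KO HIF-2α) and 1.90 (HIF-1α KO HIF-1β). On that measure the furthest were HIF-2α after 48 h (7.07), and HIF-1α (3.89) and HIF-2α (3.67) in 3% oxygen.

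**Figure D2:**
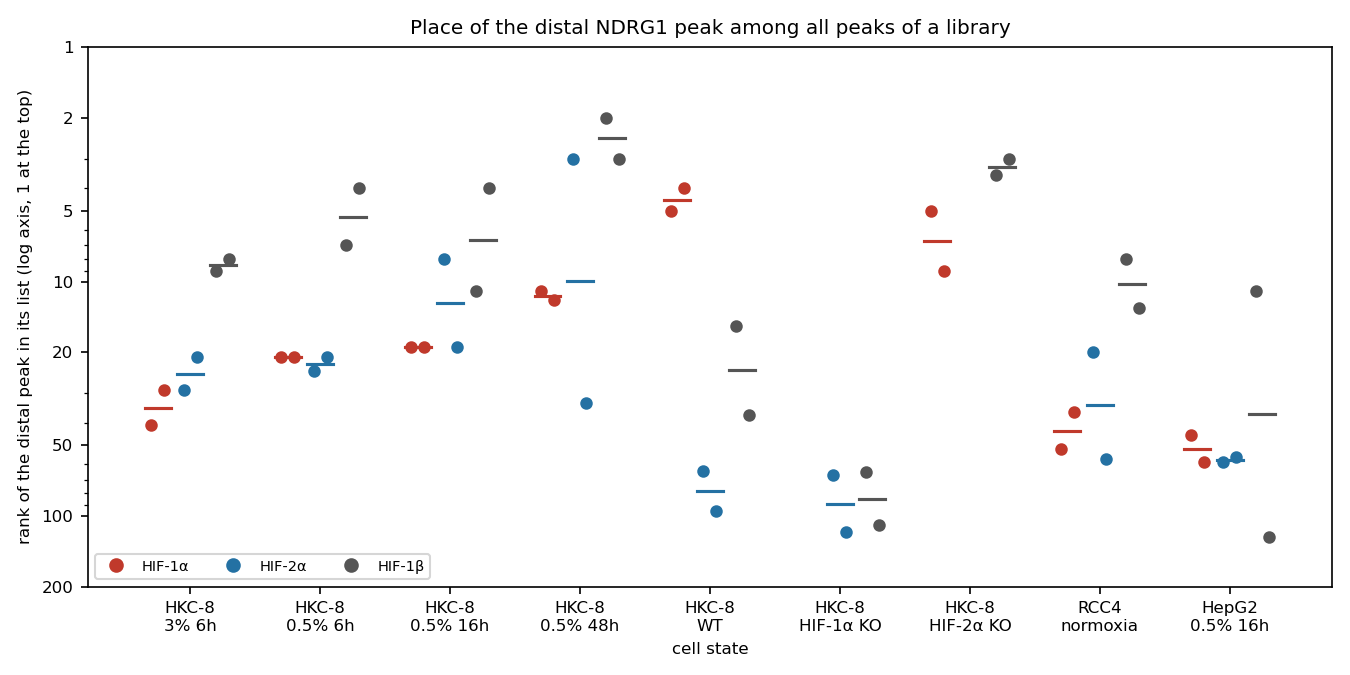
Points give the rank of the distal peak in the list of each library on a log axis with 1 at the top, by cell state and antibody, and bars give the geometric mean of the 2 libraries. HIF-1α and HIF-2α are separated in WT HKC-8 cells (5 and 4 against 64 and 95) and overlap or tie in the other 6 states that have both.

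Ranks were compared between HIF-1α and HIF-2α in the 7 cell states that had both. The HIF-1α rank was nearer the top by −0.39 on the log2 scale on average over 28 libraries (two-sided exact permutation within state, p = 0.342, or 0.456 adjusted over the 8 comparisons of ranks), and HIF-1α had the mean rank nearer the top in 3 states, HIF-2α in 4. The direction rested on WT HKC-8. The difference there was −4.12, against SDs of 0.23 and 0.40 (n = 2 each), while in the other 6 states it was between −0.16 and 0.62. The WT HIF-1α lists were shorter (1913 and 1535 peaks) than the HIF-2α lists (4537 and 6749), and as a percentage of the list the ranks were 0.261 and 0.261 against 1.41 and 1.41. The score over the median score of the list overlapped, at 19.3 and 16.8 for HIF-1α and 14.3 and 17.7 for HIF-2α. Without WT HKC-8 the mean difference was 0.24 (exact permutation p = 0.476), and without HepG2 it was −0.42 (p = 0.372 by the same exact test). A preference of the distal site for either α subunit was thus not detectable across states.

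The severity and the duration of hypoxia were compared within antibody. The distal peak ranked further from the top in 3% than in 0.5% oxygen at 6 h, by 0.51 on the log2 scale (12 libraries, two-sided exact permutation p = 0.037, or 0.185 once adjusted). The direction was shared by the 3 antibodies, whose differences were 0.72 (HIF-1α), 0.14 (HIF-2α) and 0.68 (HIF-1β). The difference did not pass the threshold of 0.05 after adjustment. With the rank taken as a percentage of the list, the log2 difference was 1.14 (exact permutation p = 0.00926, unadjusted, the smallest the test can give). The lists in 3% oxygen were shorter (558 to 1223 peaks) than those in 0.5% oxygen at 6 h (1271 to 1496). The same rank is therefore a larger percentage in 3% oxygen. By score over the median score of the list, the log2 difference was 1.02 (exact permutation p = 0.0185, unadjusted). Over the 7 sites called in all 12 of these libraries, the distal site included, the median difference in log2 rank was 0.40, and the distal site took place 5 from the lowest. At 16 h compared with 6 h the difference was −0.23 (exact permutation p = 0.528, adjusted p = 0.603).

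At 48 h compared with 6 h the distal peak was nearer the top for all 3 antibodies, by −1.05 on average (exact permutation p = 0.0463, adjusted p = 0.185), which again missed the adjusted threshold. The lists at 48 h were of unequal length, and when the rank was taken as a percentage of the list the difference was −0.26 (exact permutation p = 0.787). Using the score over the median score of the list instead, it turned to 0.09 in the direction away from the top (exact permutation p = 0.907). The HIF-2α replicates at 48 h lay on either side of both 6 h libraries. Without replicate 1 of HIF-2α at 48 h the difference was −0.48 (exact permutation p = 0.176), and without replicate 2, the list of 237 peaks, it was −1.63 (exact permutation p = 0.00926).

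The knockout experiment addressed whether the binding of each isoform depends on the other being present. At the distal site the ranks of HIF-1β, the shared partner, lay close to those of the α subunit that remained. In HIF-2α KO cells, where HIF-1α remained, the distal peak ranked 5 and 9 for HIF-1α and 3.5 and 3 for HIF-1β. In HIF-1α KO cells, where HIF-2α remained, it ranked 67 and 117 for HIF-2α and 65 and 109 for HIF-1β. The HIF-1β ranks of the 2 knockouts did not overlap with each other, also with the tied peak of HIF-2α KO replicate 1 in any place its score allows. Whether the HIF-1β ranks of either knockout overlapped with those of WT is not known, because both WT peaks scored 3100 and could lie anywhere within the first 24 and 66 peaks. For the remaining α subunit the log2 difference from WT was 0.18 (HIF-2α) and 0.58 (HIF-1α), and the ranks overlapped with WT in both.

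Over both antibodies the difference from WT was 1.00 in HIF-1α KO cells (8 libraries, two-sided exact permutation p = 0.111, or 0.296 adjusted) and −1.15 in HIF-2α KO cells (exact permutation p = 0.333, adjusted p = 0.456). With the ranks observed, these tests cannot give an exact permutation p below 0.0556 and 0.111, respectively. The HIF-2α KO lists were shorter (915 to 2550 peaks) than the WT lists of the same antibodies, and with the rank as a percentage of the list that difference was 0.00 (exact permutation p = 1). With every distal peak at 3100 put in the first place, it was 0.69, in the opposite direction, and the HIF-1α KO difference was 3.29, whereas in the last possible place they were −1.47 and 0.63. Each knockout was 1 clone, so genotype and clone cannot be told apart.

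Cell lines were compared with WT HKC-8. Line and experiment cannot be told apart here, and in RCC4 the cells were also in normoxia. The mean difference in log2 rank was 0.28 for RCC4 (12 libraries, two-sided exact permutation p = 0.713, or 0.713 adjusted) and 1.24 for HepG2 (exact permutation p = 0.167, adjusted p = 0.333). For RCC4 the difference was 1.05 with the rank as a percentage of the list (exact permutation p = 0.0926), and with the WT HIF-1β peaks in the first place it was 1.81 (exact permutation p = 0.0556). For HepG2 it was 2.19 with the tied HIF-1β peaks in the first place. The distal peak ranked further from the top for HIF-1α in both lines, by 3.27 in RCC4 and 3.53 in HepG2, and all 4 of those ranks were further than both WT ranks. The WT HIF-1α lists (1913 and 1535 peaks) were shorter than those of RCC4 (5680 and 2120) and HepG2 (3470 and 6851). As a percentage of the list the HIF-1α ranks were 0.915 and 1.70 in RCC4 and 1.30 and 0.861 in HepG2. The WT ranks were both 0.261 on that measure. By score over the median score of the list, WT (19.3 and 16.8) overlapped with RCC4 (21.0 and 15.7) and HepG2 (14.1 and 33.5). With HIF-2α the distal peak ranked nearer the top, by −1.21 in RCC4 and −0.44 in HepG2. As a percentage of the list, however, the RCC4 HIF-2α ranks (0.463 and 1.91) lay on either side of those of WT (1.41 and 1.41).

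The distal peak had a common core and a variable reach. All 50 peaks shared 275 bp (134387745 to 134388019), and peak width ran from 320 to 3918 bp with a median of 1290 bp. In 42 libraries the peak ended at most 980 bp beyond the median centre of the site on the side away from NDRG1. In the other 8 it reached 1940 to 2156 bp beyond, and these were 4 of 4 HIF-1α KO libraries, 3 of 6 HepG2 libraries and 1 of 6 RCC4 libraries, against 0 of 6 WT, 0 of 4 HIF-2α KO and 0 of 24 severity and duration libraries. The HepG2 libraries with the long peak were HIF-1α replicate 2, HIF-2α replicate 1 and HIF-1β replicate 2, of which the first 2 are the α libraries with the high promoter share. Median peak width of the lists did not separate HIF-1α KO from WT cells (987 to 1113 bp against 987 to 1131 bp). The distal peak of the HIF-1α KO libraries was among the widest of its list, at the 98.8 to 99.6 percentile, whereas in WT it was at the 77.7 to 94.3 percentile. Percentiles of this size were not confined to HIF-1α KO cells. In 0.5% oxygen for 6 h they were 99.1 (HIF-1α replicate 1), 99.6 and 99.1 (HIF-2α) and 99.1 (HIF-1β replicate 1). After 48 h they were 98.9 and 99.1 (HIF-1α) and 98.8 (HIF-2α replicate 1). HIF-2α replicate 1 in 3% oxygen, HIF-1α replicate 1 in RCC4 and HIF-2α replicate 1 in HepG2 each stood at 98.9. Wider peaks in HIF-1α KO cells were not confined to the distal site, as at +59.5 kb they spanned 3004 to 4270 bp, against 1364 to 2425 bp in WT. The limit of 1500 bp used to count long peaks was chosen after the values were seen, and no test was run on it.

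**Figure D3:**
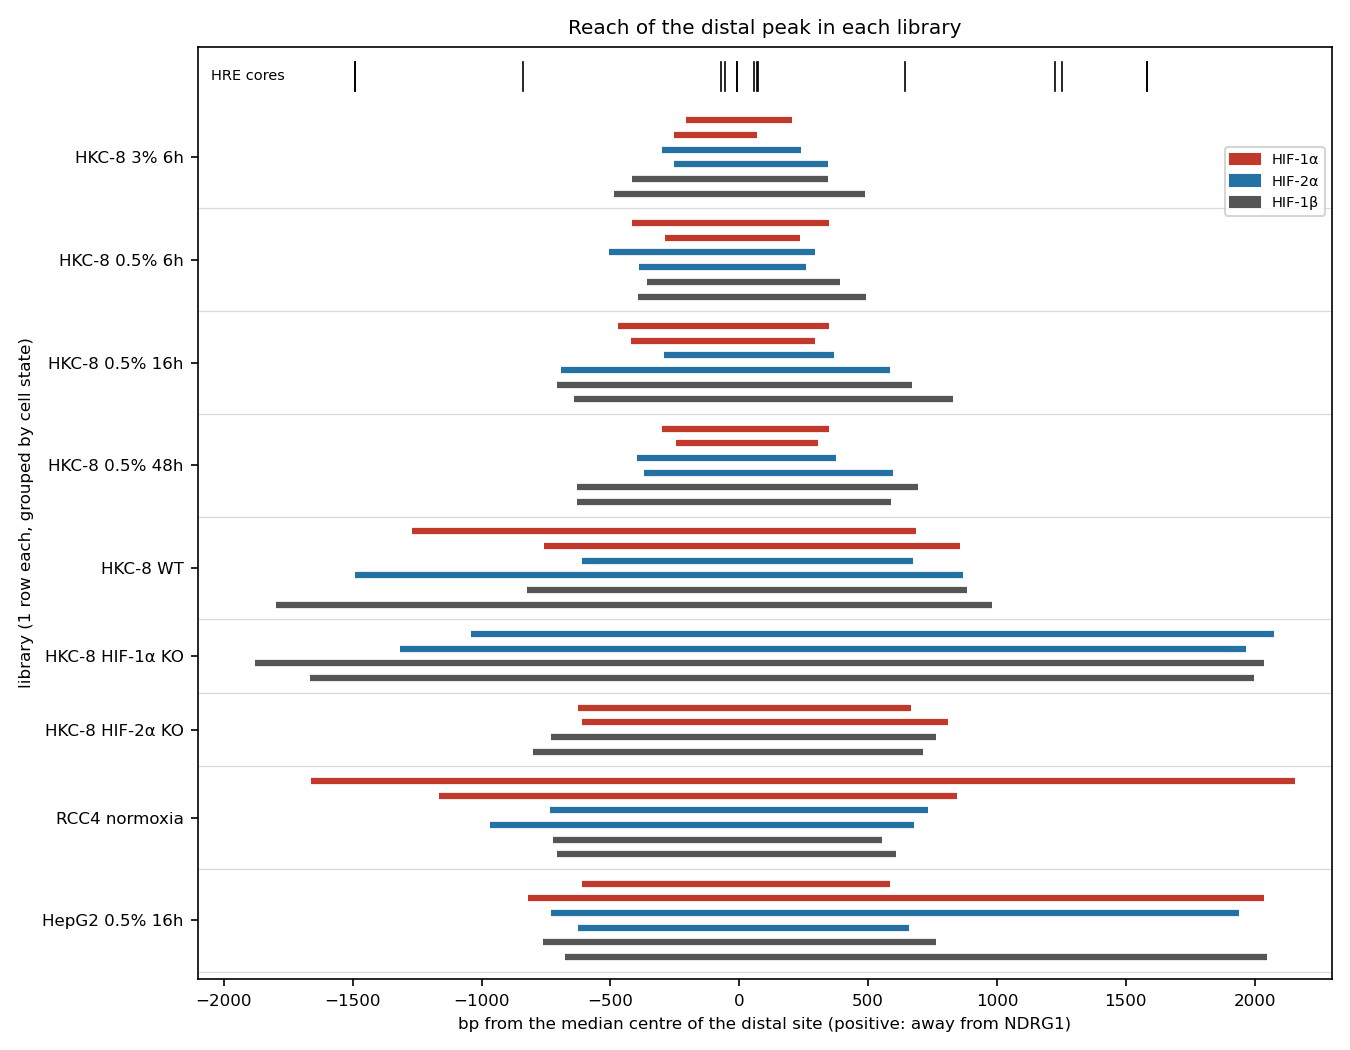
Bars show the extent of the distal peak in each of the 50 libraries, in bp from the median centre of the site (positive values point away from NDRG1), coloured by antibody and grouped by cell state, and ticks at the top mark matches to the HRE core. The 4 HIF-1α KO peaks end 1966 to 2074 bp from the centre, and the 6 WT peaks end 674 to 980 bp from it.

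HRE cores were counted as matches to ACGTG or GCGTG on either strand. A palindromic CACGTG matches on both strands and so counts as 2, and a match does not show that a factor bound there. Within 100 bp to either side of its median centre the distal site held 7 matches in 5 separate places, against a median of 0 over all 50169 sites, where 33.8% held at least 1 match and 0.122% held 7 or more. Among the 71 sites called in at least 40 libraries the median was 2 matches, and 2.82% had 7 or more. The 275 bp shared by all distal peaks held 5 matches in 4 places. Over the whole merged interval of 4036 bp there were 15 matches, a number reached by 31.0% of the 71 widely called sites (median 10), and the 3.72 matches per kb were reached by 15.7% of all sites. Of the 15 matches, 4 lay in the part reached by the 8 long peaks alone. An AP-1 motif (TGACTCA or TGAGTCA) also lay within 100 bp of the centre, as it did at 7.95% of all sites.

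Of the other recurring sites, the CCN4 and +23.5 kb sites each held 1 HRE match within 100 bp of their centre and the +59.5, +84.9 and +111.6 kb sites held 0. Over the whole merged intervals there were 5 matches at +59.5 kb, 11 at +84.9 kb and 7 at +111.6 kb. The +84.9 kb site had an AP-1 motif within 100 bp of its centre. The NDRG1 promoter interval held 14 matches, or 5.11 per kb, but 0 within 100 or 250 bp to either side of its centre, where the distal site held 7 in both windows.

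Unlike the distal site, the other sites of the window were called in some groups and not in others. Calls were compared between HIF-1α and HIF-2α at all 1492 sites of the genome called in at least 6 but not all of the 28 libraries, and 4 sites of the window qualified. Genome-wide, 1.88% of these sites were called more often for HIF-2α and 0.469% more often for HIF-1α at an adjusted p under 0.05. One of the 4 window sites passed this threshold, so the count is too small to be read against that background.

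**Figure D4:**
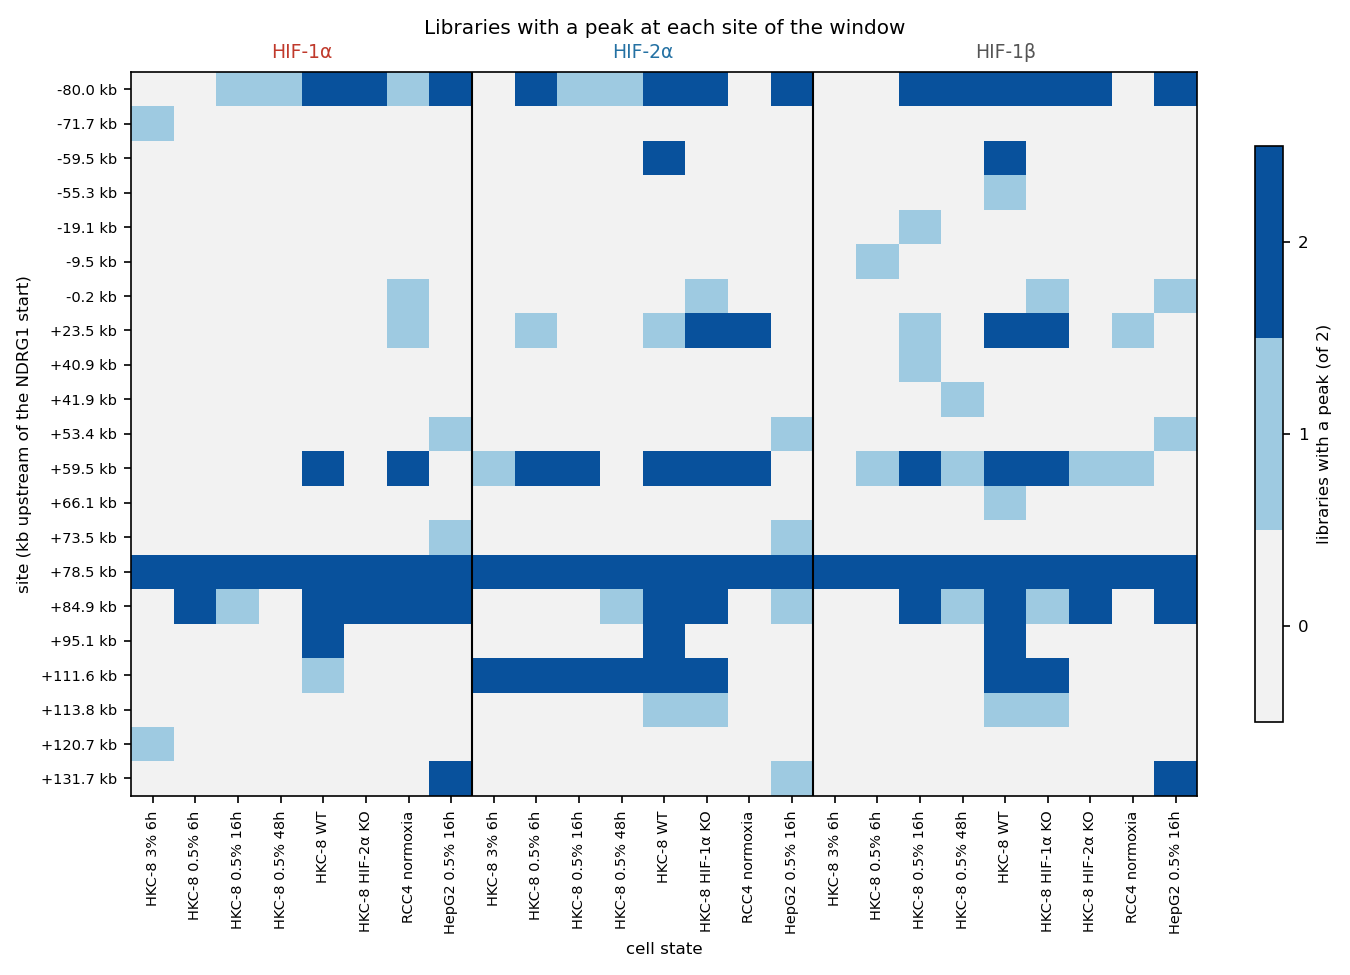
Colours give the number of libraries (0, 1 or 2) with a peak at each of the 21 sites, in rows by distance upstream of the NDRG1 start, for the 25 groups in columns ordered by antibody and cell state. The row at +78.5 kb is filled in every column, and the row at +111.6 kb is filled for HIF-2α in the 5 HKC-8 states with both isoforms and in HIF-1α KO cells.

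The site that passed was +111.6 kb, called in 10 of 14 HIF-2α and 1 of 14 HIF-1α libraries (exact permutation p = 0.000772, two-sided, adjusted p = 0.046 over 1492 sites). HIF-2α had more calls in 5 of 7 states and the other 2 states, RCC4 and HepG2, had none for either. All 12 HIF-2α libraries of HKC-8 cells had a peak there, with ranks from 5 to 702. In 3% oxygen at 6 h those ranks were 14 and 5, above the distal peak of the same libraries at 29 and 21. The single HIF-1α call, in WT replicate 1, ranked 1701.5 of 1913 and lay beside the other peaks, at 109 to 110 kb upstream. It overlapped 1 of them, a long HIF-2α peak of HIF-1α KO cells, through which it was merged into the site.

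HIF-1β was called at +111.6 kb in both libraries of 2 of the 6 states in which both HIF-2α libraries had a peak, namely WT (ranks 3577 and 2372) and HIF-1α KO (2749.5 and 1448.5). It was called in 0 of 8 HIF-1β libraries of the severity and duration experiment, where 8 of 8 HIF-2α libraries had it. In HIF-2α KO cells, 0 of 4 libraries had a peak there. These were HIF-1α and HIF-1β libraries, and neither antibody had a call there in the severity and duration experiment either. Without HepG2 the difference in calls was −75.0 percentage points (exact permutation, adjusted p = 0.0229) in place of −64.3. Leaving out replicate 2 of HIF-1α in WT cells raised the adjusted p to 0.0529 in the exact test. With the replicate number as a block the call was lost (exact permutation, adjusted p = 0.162). Reads of low mapping quality had been removed by the authors, and any that other copies of the pseudogene sequence share were not examined.

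The other 3 sites tested did not pass the adjusted threshold. At +59.5 kb a peak was called in 9 of 14 HIF-2α and 4 of 14 HIF-1α libraries (exact permutation p = 0.0278, adjusted p = 0.171). The +84.9 kb site went in the opposite direction, with 4 of 14 HIF-2α and 9 of 14 HIF-1α libraries (exact permutation p = 0.0833, adjusted p = 0.286). At the CCN4 site the calls numbered 8 and 7 (exact permutation p = 1, adjusted p = 1). Without HepG2 the adjusted p in the exact test was 0.114 at +59.5 kb, 0.344 at +84.9 kb and 1 at the CCN4 site. The +23.5 kb site was called for HIF-1α in 1 and for HIF-2α in 6 of 16 libraries, of which 2 HIF-2α calls were in HIF-1α KO cells. Without the knockouts, which the test left out, it fell below the minimum of 6 calls.

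In the knockout experiment the recurring sites varied in rank as well as in call. At +84.9 kb the HIF-1β ranks were 131 and 171 in HIF-2α KO cells and 498 and 1192 in WT, and in HIF-1α KO cells 1 HIF-1β library had a peak, at 4290.5. The HIF-1α ranks there were 95 and 233 in HIF-2α KO cells and 238 and 490 in WT. At +59.5 kb the order differed, with HIF-1β ranks of 291 and 133 in HIF-1α KO cells, 469 and 397 in WT, and 1 peak in HIF-2α KO cells, at 646. As a percentage of the list, however, the HIF-1β ranks at +59.5 kb overlapped, at 8.59 and 2.30 in HIF-1α KO cells and 7.57 and 4.80 in WT. Those at +84.9 kb overlapped as well, at 5.14 and 8.20 in HIF-2α KO cells and 8.03 and 14.4 in WT. The HIF-1α ranks there did too, at 7.47 and 25.5 in HIF-2α KO cells and 12.4 and 31.9 in WT.

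The CCN4 site, where several libraries had more than 1 peak (39 peaks in 31 libraries), was called in 24 of 38 HKC-8, 1 of 6 RCC4 and 6 of 6 HepG2 libraries. It had HIF-1β ranks of 142 and 97 in HIF-1α KO, 112 and 93 in WT and 221 and 320 in HIF-2α KO cells. At +23.5 kb, HIF-1β ranked 1572.5 and 1131 in HIF-1α KO cells and 3229 and 4305 in WT, and 0 of 4 HIF-2α KO libraries had a peak. These are differences between 2 libraries on each side, and no test of them was run.

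**Figure D5:**
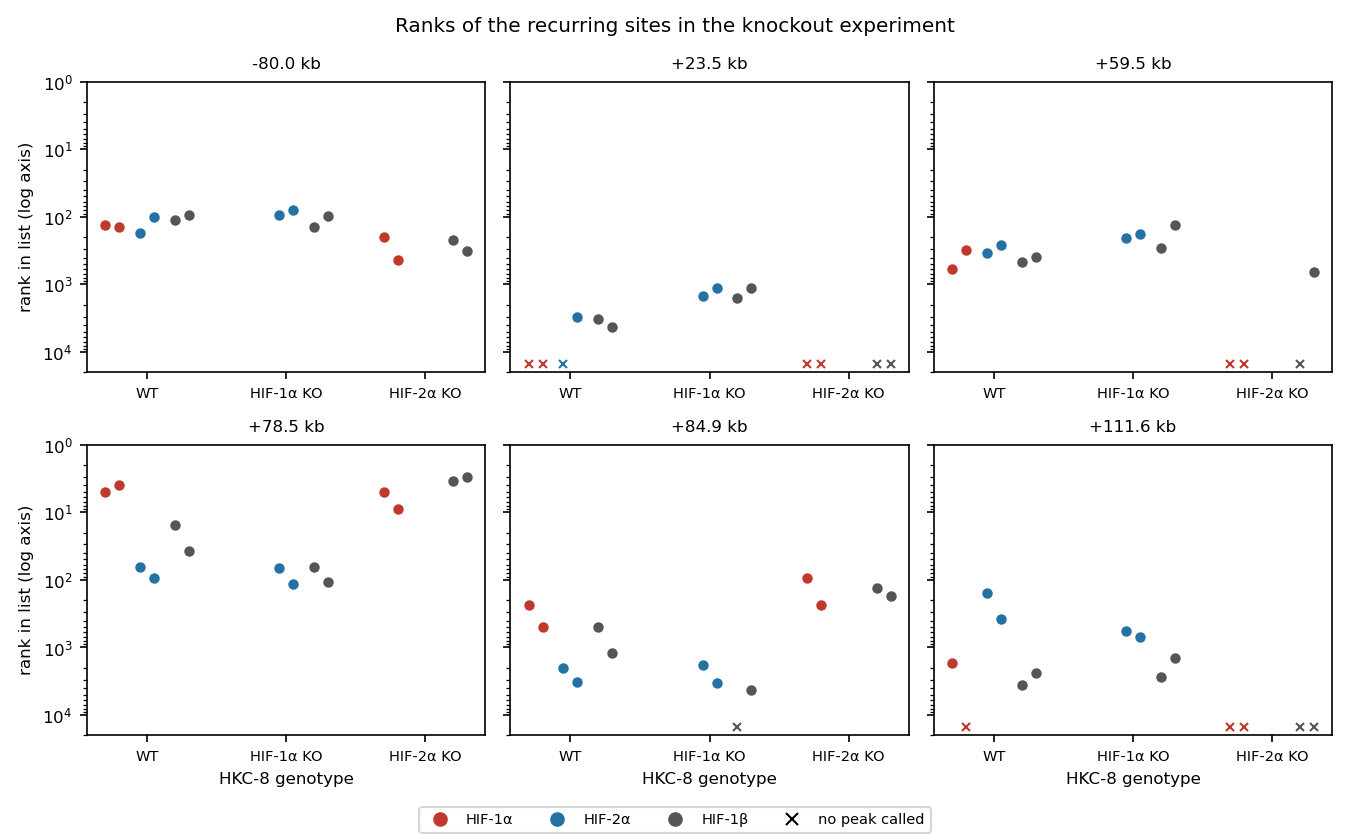
Each panel shows 1 of the 6 recurring sites, named by its distance upstream of the NDRG1 start, with the rank of its peak on a log axis (1 at the top) for the 14 libraries of the knockout experiment, by genotype and antibody, and crosses mark libraries with no peak called. HIF-1β lies near HIF-1α in HIF-2α KO cells and near HIF-2α in HIF-1α KO cells at +78.5 kb, with ranks of 3.5 and 3 against 65 and 109, and the WT HIF-1β points there are mean ranks of tied scores.

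Retention of WT sites in the knockouts was counted over sites called in both libraries. Of 7 window sites with HIF-2α in WT, 5 were kept in HIF-1α KO cells, against 69.4% of 3750 such sites genome-wide. Of 8 with HIF-1β in WT, 5 were kept in HIF-1α KO cells (47.4% of 5046 genome-wide) and 3 in HIF-2α KO cells (27.3%). Of 5 with HIF-1α in WT, 3 were kept in HIF-2α KO cells (48.0% of 1097). The distal site, known beforehand to be called throughout, is 1 of the kept sites in each count. The sites kept for both antibodies in HIF-2α KO cells were CCN4, +78.5 and +84.9 kb, and the HIF-1β sites not called in both libraries there were the 3′ end, +23.5, +59.5, +95.1 and +111.6 kb.

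Between cell lines, 1 of the 8 HIF-1β sites of WT HKC-8 cells, the distal site, was called in both HIF-1β libraries of RCC4 (6.2% of 5046 genome-wide), and 3 were in HepG2 (14.2%), again CCN4, +78.5 and +84.9 kb. The RCC4 HIF-1β lists held 911 and 1305 peaks, against 6199 and 8279 in WT. In RCC4, the +23.5 and +59.5 kb sites were called in 4 and 5 of 6 libraries, and HIF-2α ranked 252 and 132 at +23.5 kb. HepG2 had 0 of 6 calls at both. A site at +131.7 kb (134440488 to 134441853) had a peak in 5 of 6 HepG2 libraries, with ranks 241 to 1445, and in 0 of 38 HKC-8 and 0 of 6 RCC4 libraries. It was called for HIF-1α in both replicates and for HIF-2α in replicate 2. Sites at +53.4 kb (3 libraries) and +73.5 kb (2 libraries) were also called in HepG2 and in 0 libraries of the other lines, and no test was run between lines on calls. The share of all merged sites called only in HepG2 was not computed, so these sites cannot be read against that background.

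The sites left were weaker. At +95.1 kb, over the processed pseudogene DPPA3P7, a peak was called in 6 of 6 WT libraries of the knockout experiment and in 0 of the other libraries, with ranks from 1401 to 4161. The site at +113.8 kb was called in 4 libraries, all replicate 2 of WT or HIF-1α KO cells. The 8 sites called in 1 library had scores from 50.3 to 71.7, near the lowest score in the lists, and included the coding exon of CCN4 at −71.7 kb and 3 positions within NDRG1.

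Few sites elsewhere were called as widely, and none of those compared followed the distal site closely. Sites called in fewer than 49 libraries were not compared. Among those called in at least 49 libraries, the log2 rank over shared libraries had the highest Spearman correlation with that of the distal site at ALDOA (0.21 over 49 libraries), PPP1R3C (0.15 over 49) and the site near ARRDC3 (0.03 over 50), which share these libraries and list lengths with it. The site at LDHA was also compared and gave 0.01 over 49 libraries. ALDOA encodes a glycolytic aldolase, PPP1R3C a glycogen-targeting subunit of protein phosphatase 1, and ARRDC3 an arrestin-domain protein. The ARRDC3 site differed by antibody, with HIF-1α at a median rank of 45, HIF-2α at 4.75 and HIF-1β at 15.5, where the distal NDRG1 site had 20, 31 and 8.5. It ranked above the distal NDRG1 site in 25 of 50 libraries.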

How the data were processed

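Peak lists of 50 ChIP-seq libraries were analysed as deposited, without the 16 input samples, which had no list here. The authors trimmed adaptors (Trim Galore 0.3.3), aligned reads to GRCh37/hg19 (BWA 0.7.5a-r405), removed reads of low mapping quality (SAMtools 0.1.19) or in blacklisted regions (bedtools 2.17.0), marked duplicates (Picard 1.106), and called peaks per library with MACS, whose version is not given in the sources used here. The authors' methods also name the T-PIC caller, with peaks kept where both callers found them, above a random background and overlapping between replicates. The lists analysed here also hold peaks of 1 replicate only, and whether the other filters were applied to them was not examined. The deposited score of each peak was read as the MACS score. It ran from 50.0 to 3233, with high scores piled up at 3100, and grows with depth, which the lists do not hold. Ranks in a list therefore replaced scores, and ties took the mean rank.

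Peaks on chromosomes 1 to 22, X and Y (294 others were left out of sites but kept in ranks) were merged on 1 bp of overlap and annotated with GENCODE 44 on GRCh37. Mean differences in log2 rank or in calls were tested by exact permutation of libraries within strata (Python 3.11.15, numpy 2.4.6, pandas 2.3.3), two-sided, with Benjamini-Hochberg adjustment over 8 rank tests or 1492 sites, and the tests were tested on simulated data. Replicates are described as independent experiments; no 2 lists were identical. Alternatives were rank as a percent, score over the median, main chromosomes only, score of at least 100, merging within 500 bp, wider HRE windows, replicate block, and leaving out replicates, libraries, cell states or HepG2, and, added after seeing the data, the first or last possible place for distal peaks at 3100.

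Named genes were NDRG1, genes in the window or nearest to its sites, and the 3 sites elsewhere most alike in rank among those called in at least 49 libraries. The LDHA site is given beside them. The members and lists were chosen with earlier results of these data known.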

Additional observations from a re-analysis of the deposited data

Results flagged for a closer look

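At the distal site, 4 contrasts of rank had opposite signs in all libraries of the groups set side by side, and none of these differences was itself tested. For HIF-1β relative to WT, the gap in log2 rank between HIF-2α KO and HIF-1α KO cells was −4.70. In RCC4 relative to WT HKC-8, the gaps of HIF-2α and of HIF-1β from HIF-1α were −4.48 and −4.51. In HepG2 relative to WT HKC-8, the gap of HIF-2α from HIF-1α was −3.97. These contrasts share WT libraries. The size of the gap between the knockouts does not depend on the WT HIF-1β ranks, which cancel in it. Its opposite signs relative to WT, and the RCC4 HIF-1β gap, rest on WT peaks of tied score whose place is not known. As a percentage of the list the RCC4 HIF-1β ranks were further from the top (0.878 and 0.996) than those of WT (0.25 and 0.447). The RCC4 HIF-2α ranks overlapped with WT on that measure. By score over the median score of the list, the HIF-1α values of both lines overlapped with WT. The HepG2 α libraries are those whose replicates disagreed on promoter share.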

How the results depend on the processing

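The difference in distal rank between HIF-1α and HIF-2α turned to 0.11 without replicate 2 and to 0.24 without WT HKC-8, and over all omissions of a replicate or library it ran from −0.88 to 0.11. For 3% against 0.5% oxygen the difference was 0.45 on main chromosomes alone (unadjusted exact p = 0.0741) and 0.51 under the replicate block (unadjusted exact p = 0.0625), 1.14 as a percent of the list and 1.02 by score, and omissions gave 0.38 to 0.65. For 16 h against 6 h the score-based value was −0.55, with an unadjusted p under the threshold, and omissions gave −0.47 to 0.0156, the reversal being without replicate 2 of HIF-1β at 16 h. For 48 h against 6 h the value was −0.26 as a percent of the list, 0.0895 by score and −1.05 under the replicate block, and omissions gave −1.91 to −0.19. For HIF-2α KO the percent value was 0.00145 and the value with tied peaks in the first place 0.69 (added after seeing the data), for HepG2 the score value was −0.17, and for RCC4 the replicate block, which loses replicate 3, gave −0.0476. The cause of these changes was not tested, and the HIF-1α KO difference kept its direction in all 16 alternatives (0.27 to 3.29).

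Replicate numbers were shared across antibodies with no statement of a shared day. The replicate differences of HIF-1α and HIF-2α correlated at over 0.1 in 4 of the 7 states (up to 0.46) and under −0.1 in 3 (down to −0.63), so pairing by number was not established. The count of window sites with a difference in calls was 1, and 0 under the replicate block, 0 with numbers crossed in the 3 states where the correlation was under −0.1 (chosen after seeing the data, as was leaving out each cell state), and 0 to 1 over omissions, with 0 without either replicate number and without WT HIF-1α replicate 2. With scores of at least 100 the window held 12 sites in place of 21. With all scores, the distal site held 15 HRE matches counted over its whole interval, in place of 7 counted within 100 bp of its centre. Depth limits what can be said of sites without a call, most of all in the list of 237 peaks.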
